A study of Mus musculus with 6 samples.

Results

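The genes described here are the 6 conventional actin genes of the mouse, Acta1, Actc1, Acta2, Actg2, Actb and Actg1, chosen by symbol from the 24062 genes of a deposited table of RNA-seq read counts. All 6 were present and all 6 had enough counts to be among the 14090 genes tested. The cells were mouse embryonic fibroblasts, connective tissue cells of C57BL/6 embryos. In the p27 OE group a lentivirus carried p27, which Cdkn1b encodes and which blocks cyclin-dependent kinases, and RNA was taken at day 4, before senescence according to the labels. The EV control group, whose abbreviation is not explained in the labels, was taken at day 4 too. Each group had 3 libraries, numbered 1, 2 and 3 in their titles. The comparison is of transcript levels in p27 OE cells, labelled non-senescent, with those in EV control cells. The labels do not say whether the libraries came from separate cultures or embryos, so p-values measure the spread between these libraries, which may be technical. The sources used here do not name the promoter that drives p27. The titles of the EV control libraries hold a dataset number, absent from those of p27 OE, and the labels do not say whether both groups were grown and sequenced together. If they were not, such a difference and p27 cannot be told apart here.

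Actin is the protein of the thin filaments that shape cells and carry myosin-driven force. Mammals have 4 muscle actins and 2 cytoplasmic ones: Acta1 encodes the alpha actin of skeletal muscle, Actc1 that of the heart, Acta2 the alpha actin of vascular smooth muscle, Actg2 the gamma actin of visceral smooth muscle, and Actb and Actg1 the beta and gamma actins found in nearly all cells. In fibroblasts Acta2 is the usual marker of the contractile myofibroblast state. Many actin genes are targets of serum response factor, SRF, which works with the coactivators MRTF-A and MRTF-B. Free actin monomer holds the MRTF proteins in the cytoplasm, so that filament assembly releases them. SRF binds a short DNA element called the CArG box.

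The 6 genes encode nearly the same protein from clearly different messages, which matters for a count table in which each read must be given to 1 gene. Their coding sequences in the GENCODE M21 transcripts (GRCm38) were between 81.5% (Actg1 against Acta2 and against Actc1) and 88.7% (Actb against Actg1) identical. The first 60 coding bases are shown because the isoforms begin with different amino acids, which is how they are told apart. Capitals mark bases that differ from Acta2, or have no partner there, in a global alignment of the coding sequences.
Acta2: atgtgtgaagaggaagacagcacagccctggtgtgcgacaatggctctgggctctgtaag
Actg2: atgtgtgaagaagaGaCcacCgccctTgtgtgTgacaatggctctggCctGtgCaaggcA
Acta1: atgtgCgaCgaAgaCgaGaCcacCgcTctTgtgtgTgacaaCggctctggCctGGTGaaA
Actc1: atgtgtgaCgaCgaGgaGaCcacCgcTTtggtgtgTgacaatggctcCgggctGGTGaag
Actb: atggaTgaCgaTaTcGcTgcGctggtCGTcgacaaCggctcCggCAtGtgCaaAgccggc
Actg1: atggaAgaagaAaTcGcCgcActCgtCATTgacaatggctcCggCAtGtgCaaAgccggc
In windows of 100 bases no actin gene shared an exact stretch with another of the 6, and in windows of 75 bases only Acta1 and Actb did, in 3 windows each. In windows of 50 bases Actb shared 28 with Acta1 and 30 with Actg1, Acta2 shared 7 with Actg1, and Actc1 and Actg2 shared 0. With annotated pseudogenes and other genes counted, 51.1% of the 100-base windows of Actg1 and 1.10% of those of Actb had an exact copy elsewhere. None of the 100-base windows of Acta1, Actc1, Acta2 and Actg2 did. In windows of 50 bases the share was 56.7% for Actg1, 14.2% for Actb, 2.22% for Acta1 and 0.352% for Acta2, and 0 for Actc1 and Actg2. The sources used here give neither read length nor the treatment of reads with several matches, so the level of Actg1 is the least certain of the 6.

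Sequence before the transcription start is shown for the 4 members that RefSeq promoter windows cover (GRCm38.p6, each on the reverse strand, 250 bases before the RefSeq start, printed 5′ to 3′ on the strand of the gene). They are shown because SRF is the best known shared regulator of these genes. Capitals mark CArG boxes and versions of the box in which 1 of the 6 inner bases is G or C.
Acta1, chr8:123894776-123895025: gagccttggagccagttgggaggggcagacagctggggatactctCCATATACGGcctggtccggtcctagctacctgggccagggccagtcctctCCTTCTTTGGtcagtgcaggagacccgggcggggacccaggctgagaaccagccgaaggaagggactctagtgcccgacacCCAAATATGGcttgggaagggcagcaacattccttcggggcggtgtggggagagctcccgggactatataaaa
Actc1, chr2:114052876-114053125: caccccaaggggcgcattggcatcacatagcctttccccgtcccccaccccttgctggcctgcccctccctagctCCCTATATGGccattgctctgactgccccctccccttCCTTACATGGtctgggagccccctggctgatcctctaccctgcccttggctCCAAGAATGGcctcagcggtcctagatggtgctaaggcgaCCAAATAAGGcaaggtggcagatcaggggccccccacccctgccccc
Acta2, chr19:34255374-34255623: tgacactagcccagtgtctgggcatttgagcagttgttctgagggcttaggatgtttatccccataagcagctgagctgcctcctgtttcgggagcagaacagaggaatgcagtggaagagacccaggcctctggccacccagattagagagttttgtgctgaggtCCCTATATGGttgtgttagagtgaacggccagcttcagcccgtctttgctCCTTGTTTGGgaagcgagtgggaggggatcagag
Actg1, chr11:120348496-120348745: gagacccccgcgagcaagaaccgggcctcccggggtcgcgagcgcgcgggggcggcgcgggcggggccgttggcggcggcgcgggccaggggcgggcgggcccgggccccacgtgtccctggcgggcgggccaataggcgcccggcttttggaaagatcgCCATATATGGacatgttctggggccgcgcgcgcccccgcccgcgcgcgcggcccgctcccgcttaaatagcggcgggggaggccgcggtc
Acta1, Actc1 and Actg1 each hold 1 exact CArG box, starting 73, 47 and 90 bases before the start in that order. Acta2 holds none, but it has 2 versions with 1 inner G or C, which start 84 and 34 bases before the start. Of 32851 promoter windows of this length, searched on both strands, 1.47% hold an exact box and 8.59% hold an exact box or such a version. The letters CATTCC, the core of the element bound by TEAD factors, occur in Acta1 on the forward strand and in Acta2 on the reverse strand. These letters occur in 12.6% of all windows. A match is a description of the sequence only.

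Total counts ran from 38533998 to 44518389 in the p27 OE libraries and from 34920728 to 52098220 in the EV control libraries. Cdkn1b was at 419, 978 and 460.0 CPM (the read count scaled to library size, with TMM factors) in p27 OE 1, 2 and 3, against 52.2, 49.9 and 51.2 CPM in EV control 1, 2 and 3. With 8.02, 19.6 and 8.99 times the EV control level in numbers 1, 2 and 3, Cdkn1b was called by edgeR neither with the block (log2 3.48 ± 0.42, adjusted p 0.0873) nor without it (adjusted p 0.180). Its edgeR adjusted p with the block was 0.241, 1.46e-69 and 0.439 without the libraries numbered 1, 2 and 3. The counts of Cdkn1b cannot tell vector transcript from the transcript of the cells' own gene. The summed level of 10 fibroblast markers was 58176 to 60111 CPM in p27 OE libraries and 54152 to 59182 CPM in EV control libraries, led by the collagen genes Col1a1, Col1a2 and Col3a1. The libraries numbered 1 stood apart in both groups, also in the actins. The 6 genes together took 1.11% of all counts in p27 OE 1 and 1.09% in EV control 1, against 1.51% to 1.57% in the other 4 libraries. Values are therefore given by library, and the difference between groups is given both without pairing and within libraries of the same number.

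These fibroblasts made mostly smooth muscle and cytoplasmic actin message. Per kilobase of exon, Acta2 stood at 2542 ± 698 CPM per kb in p27 OE and 2166 ± 544 in EV control (mean ± SD, n = 3 each, as in the values that follow). Actg1 followed at 1795 ± 294 in p27 OE and 1851 ± 297 in EV control, and Actb at 1273 ± 210 in p27 OE and 1347 ± 255 in EV control. The ranges of Acta2 and Actg1 overlapped in both groups, although Acta2 was higher in each library. In EV control the order of their means turned with the length used: over the longest transcript Actg1 was at 2444 ± 401 in p27 OE and 2520 ± 405 in EV control, and Acta2 at 2743 ± 753 in p27 OE and 2338 ± 587 in EV control. Actg1 was above Actb in each library, with overlapping ranges in EV control. Actg2 was lower, at 295 ± 56.0 CPM per kb in p27 OE and 185 ± 19.6 in EV control. Acta1 was at 64.3 ± 29.0 in p27 OE and 24.7 ± 11.1 in EV control, and Actc1 was near the floor at 0.323 ± 0.248 in p27 OE and 0.146 ± 0.172 in EV control. By mean CPM over the 6 libraries Acta2 ranked 11, Actg1 13 and Actb 19 among all genes of the table, while Actg2 ranked 366, Acta1 2935 and Actc1 13557.

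Within libraries of the same number, the muscle actins Acta1, Actg2 and Acta2 rose in p27 OE, by 2.60-fold, 1.58-fold and 1.17-fold. Neither of the cytoplasmic actins Actb and Actg1 was called, at log2 differences of -0.08 and -0.04, and the cardiac gene Actc1, at 2 to 44 counts per library, was not called. With the number as a block, edgeR called 3 of the 6 higher and 0 lower, where 3.8% of all tested genes were called higher and 3.63% lower. The 6 genes were chosen with earlier results of these data known, so the shares given here describe and do not test. Without the block, edgeR called 0 of the 6, as it called 0% of all tested genes, although 1017 genes had an unadjusted p under 0.05, Acta1 and Actg2 among them. DESeq2 without the block called Actg2 alone, against 0.376% of all genes called higher, and limma-voom without it called 0. With the block, DESeq2 and limma-voom each called the same 3 actins higher, against 3.4% and 3.24% of all genes. With the block and without the libraries numbered 1, 2 or 3, edgeR called 3, 3 and 2 actins higher, against 6.36%, 3.51% and 1.58% of all genes. Each of the 4 muscle actins was higher in p27 OE in each of the 3 numbers, as were 21.8% of tested genes, and Actb and Actg1 were lower in each, as were 23.7%.

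**Figure D1:**
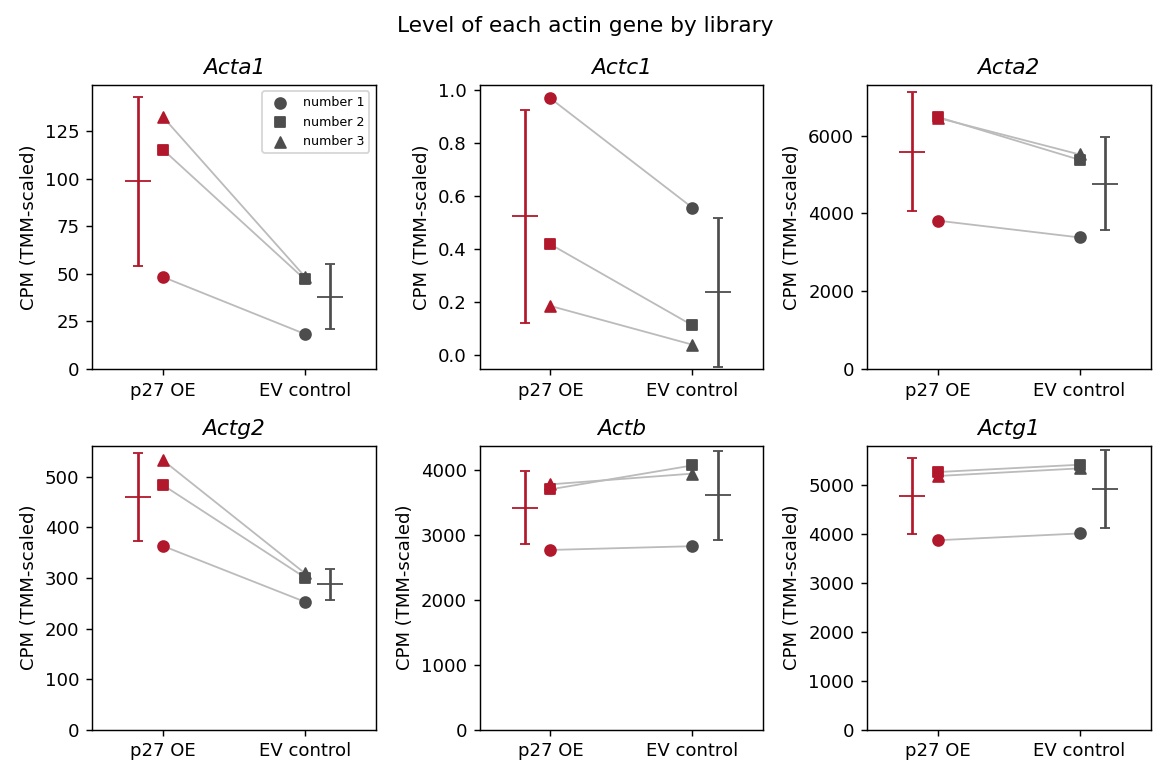
CPM of each actin gene (vertical axis, linear, TMM-scaled) in the 3 p27 OE libraries (red) and the 3 EV control libraries (grey). Lines join libraries of the same number, and bars beside the points give mean ± SD. Acta1 at 115 and 132 CPM in p27 OE 2 and 3 stands above all EV control libraries, Actg2 does not overlap between the groups, and the libraries numbered 1 are lowest for every gene except Actc1, where they are highest in their group.

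Acta1, the skeletal muscle alpha actin (chromosome 8, 123891769 to 123894751, reverse strand, GRCm38, as for the other members), was at 48.3, 115 and 132 CPM in p27 OE 1, 2 and 3, against 18.4, 47.1 and 48.6 CPM in EV control 1, 2 and 3. The counts behind these values were 2200, 4421 and 4998 in p27 OE and 992, 1666 and 2426 in EV control. The groups overlapped only at p27 OE 1, which lay just under EV control 3. The ratio of p27 OE to EV control was 2.63, 2.45 and 2.73 in numbers 1, 2 and 3, with 95% exact counting intervals of 2.44 to 2.84, 2.32 to 2.59 and 2.60 to 2.87. Intervals here cover counting error only. The ratio was thus similar in number 1, at 18.4 CPM in EV control, and in numbers 2 and 3, at 47.1 and 48.6 CPM there. The intervals of numbers 2 and 3 did not overlap. With the number as a block, edgeR gave a log2 fold change of 1.38 ± 0.06 (SE, n = 3 pairs) and an adjusted p of 4.15e-08. That p was the smallest of the 14090 genes, while the size ranked 28. Without the block the log2 fold change was 1.38 ± 0.48 with an adjusted p of 0.683.

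Actc1, the cardiac alpha actin (chromosome 2, 114047282 to 114053548, reverse strand), had 44, 16 and 7 counts in p27 OE 1, 2 and 3 and 30, 4 and 2 counts in EV control 1, 2 and 3. The libraries numbered 1 were the highest of their group, the reverse of what Acta1 showed. The ratio of p27 OE to EV control was 1.74 (95% exact interval 1.07 to 2.87), 3.69 (1.19 to 15.2) and 4.64 (0.883 to 45.7) in numbers 1, 2 and 3. The edgeR log2 difference was 1.25 ± 0.47 with the block (unadjusted p 0.0183, adjusted p 0.119) and 1.10 ± 0.95 without it (adjusted p 0.863). Actc1 was thus called in neither edgeR fit, and its counts were low.

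Actg2, the visceral smooth muscle gamma actin (chromosome 6, 83512905 to 83536265, reverse strand), was at 363, 484 and 533 CPM in p27 OE 1, 2 and 3, against 253, 301 and 309 CPM in EV control 1, 2 and 3. All p27 OE libraries lay above all EV control libraries, which was so for 6.61% of tested genes. The ratio was 1.44, 1.61 and 1.72 in numbers 1, 2 and 3. The edgeR log2 fold change was 0.66 ± 0.06 with the block (adjusted p 4.88e-05, the 12th smallest p in the table) and 0.68 ± 0.16 without it (adjusted p 0.651). DESeq2 without the block gave 0.68 ± 0.18 with an adjusted p of 0.0285.

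Acta2, the smooth muscle alpha actin and myofibroblast marker (chromosome 19, 34241090 to 34255590, reverse strand), was at 3813, 6480 and 6456 CPM in p27 OE 1, 2 and 3, against 3381, 5376 and 5514 CPM in EV control 1, 2 and 3. p27 OE 2 and 3 lay above every EV control library, and p27 OE 1 lay below EV control 2 and 3. The ratio was 1.13, 1.21 and 1.17 in numbers 1, 2 and 3. The edgeR log2 fold change was 0.22 ± 0.06 with the block (adjusted p 0.0403) and 0.23 ± 0.27 without it (adjusted p 0.915). Without the block, the difference was 0.44 without p27 OE 1 and 0.04 without EV control 1. With the block and without the libraries numbered 3 the call was lost, with a log2 difference of 0.22 ± 0.10 and an adjusted p of 0.319.

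Actb, the beta actin often used as a loading control (chromosome 5, 142903115 to 142906754, reverse strand), was at 2764, 3696 and 3773 CPM in p27 OE 1, 2 and 3, against 2822, 4063 and 3938 CPM in EV control 1, 2 and 3. Actg1, the gamma actin (chromosome 11, 120345690 to 120348542, reverse strand), was at 3870, 5263 and 5182 CPM in p27 OE 1, 2 and 3, against 4009, 5413 and 5338 CPM in EV control 1, 2 and 3. The groups overlapped for both genes, and the libraries numbered 1 were well below the rest. Actb differed by -0.08 ± 0.06 on the log2 scale with the block (adjusted p 0.479) and by -0.08 ± 0.18 without it (adjusted p 0.970). Actg1 differed by -0.04 ± 0.06 with the block (adjusted p 0.700) and by -0.04 ± 0.17 without it (adjusted p 0.983). The small negative values turned positive without the block when a single library was left out. For Actb this was so without p27 OE 1 (0.05) or EV control 2 (0.01), and for Actg1 without p27 OE 1 (0.09), EV control 2 (0.03) or EV control 3 (0.02).

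**Figure D2:**
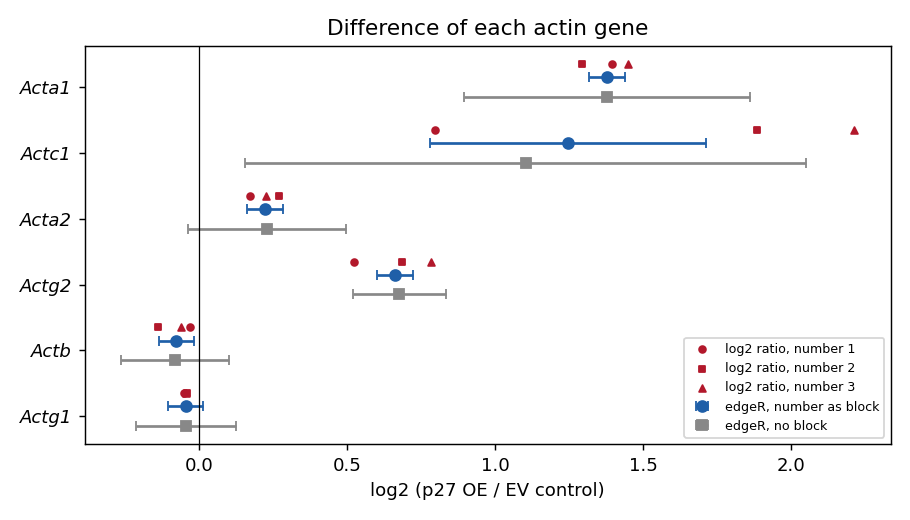
Log2 of p27 OE over EV control for each actin gene (horizontal axis), with small red symbols for the ratio within each number, blue circles for edgeR with the number as a block and grey squares for edgeR without it. Bars are ± 1 SE: for Acta1 the SE is 0.06 with the block and 0.48 without it, around the same log2 fold change of 1.38.

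Ratios between actins of the same library do not depend on how libraries are scaled to each other. The log2 ratio of the summed 4 muscle actins to the summed 2 cytoplasmic actins, per kilobase, was -0.31, -0.01 and 0.00 in p27 OE 1, 2 and 3, against -0.58, -0.41 and -0.34 in EV control 1, 2 and 3. All p27 OE libraries lay above all EV control libraries, with means of -0.11 ± 0.18 in p27 OE and -0.44 ± 0.12 in EV control (SD, n = 3 each) and a difference of 0.34. An exact two-sided permutation test gave p = 0.1, the smallest that 3 libraries against 3 allow. The difference was 0.27, 0.40 and 0.35 in numbers 1, 2 and 3. As a share of all actin message per kilobase, the muscle actins made up 44.6%, 49.8% and 50.1% in p27 OE 1, 2 and 3, against 40.1%, 42.9% and 44.1% in EV control 1, 2 and 3. In the bulk RNA of a culture, a change in the number of cells that make an actin and a change in the message per cell cannot be told apart.

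**Figure D3:**
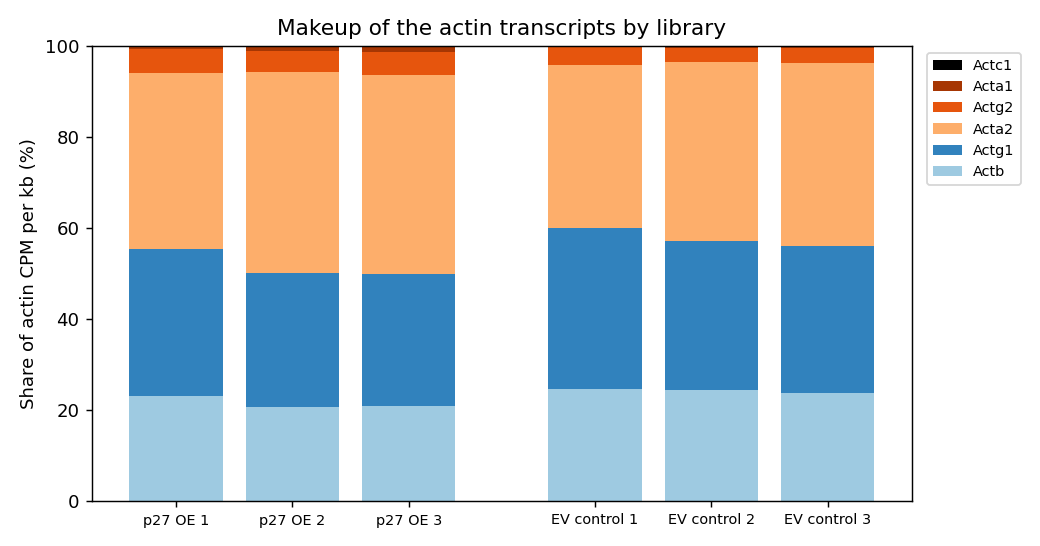
Share of each actin gene in the summed actin level (percent of CPM per kb of exon, vertical axis) in the 3 p27 OE libraries and the 3 EV control libraries. The blue part, Actb and Actg1, is smaller in p27 OE: the muscle actins hold 48.2% ± 3.10 in p27 OE and 42.4% ± 2.05 in EV control (SD, n = 3 each).

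Most of that shift in share was Acta2, at 42.1% ± 3.01 in p27 OE and 38.6% ± 2.28 in EV control. Actg2 held 4.97% ± 0.296 in p27 OE and 3.37% ± 0.377 in EV control, and Acta1 held 1.03% ± 0.300 in p27 OE and 0.427% ± 0.128 in EV control. Actg1 held 30.3% ± 1.84 in p27 OE and 33.4% ± 1.62 in EV control, and Actb 21.5% ± 1.29 in p27 OE and 24.2% ± 0.518 in EV control. Acta1 had the larger fold but Acta2 the larger amount.

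Set against Actb, the log2 ratio of Acta1 was -5.03, -4.20 and -4.03 in p27 OE 1, 2 and 3 and -6.46, -5.63 and -5.54 in EV control 1, 2 and 3. The difference was 1.43, 1.43 and 1.51 in numbers 1, 2 and 3, and the groups did not overlap, although the CPM values of Acta1 did. The ratio of Actg2 to Actb differed by 0.74 between the groups, which did not overlap, that of Acta2 by 0.30 and that of Actg1 by 0.03, both with overlapping groups. Exact two-sided permutation tests, adjusted over the 5 ratios, gave 0.25 for Acta1 and Actg2, 0.333 for Acta2, 0.375 for Actc1 and 0.4 for Actg1. A raw p of 0.1 is the lowest this design allows, so none could be called. How many other genes have a ratio to Actb that does not overlap between the groups was not counted. The log2 ratio of Actg1 to Actb ran from 0.47 to 0.52 in p27 OE and from 0.43 to 0.52 in EV control, the steadiest of the 5.

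The likeness of patterns over the 6 libraries was measured as the root mean square difference of log2 CPM after centring each gene. These log2 CPM values had a prior count of 2 added. Actb and Actg1 were the most alike of the 15 pairs of actins, at 0.04, against 0.20 for Acta2 with either of them and 0.28 for Acta2 with Actg2. Actc1 was unlike every other member, at 1.24 or more. Of 10608 other genes averaging 5 CPM or more, those near Acta1 included Myom1, a protein of the sarcomere M-band (0.32) and Kcnmb1, a potassium channel subunit of smooth muscle (0.35). Acta1 itself varied by 0.95 in log2 CPM without the added count. Myom1 was at 21.9, 35.2 and 38.4 CPM in p27 OE 1, 2 and 3, against 10.1, 20.3 and 20.5 CPM in EV control 1, 2 and 3, so it too was lowest in the libraries numbered 1 of each group.

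Nearest to Actg2 were Uchl1, a ubiquitin hydrolase (0.06), Dmd, dystrophin (0.09), and Itgav, an integrin subunit (0.11). Nearest to Acta2 were Hspb1, a small heat shock protein that binds actin, Il1rap and Naa25, each at 0.03. The genes nearest to Actb were Tmem192, Desi1 and Arl8a, at 0.02 to 0.03, and those nearest to Actg1 were Itga6, Fam46b and Tspan9, each at 0.02. Nearest to Actc1 was Angptl4 at 0.36. Actc1 itself varied by 1.54 in log2 CPM without the added count, which at its low counts cannot be set against these distances. Actb itself varied by 0.23 and Actg1 by 0.20 in log2 CPM without the added count.

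The genes listed for SRF and its partner factors did not pass the test at the level of their own message. Of 7 genes listed, Srf, Mkl1, Mkl2, Myocd, Elk1, Elk3 and Elk4, 0 were called with or without the block. Myocd and the Elk genes are named only to show what the list holds. The median log2 difference of the list was 0.08 against -0.00 over all tested genes. At an unadjusted p under 0.05 the count was 0 as well, in both fits. Srf was at 72.1 ± 5.86 CPM in p27 OE and 69.7 ± 9.91 CPM in EV control (log2 0.05 ± 0.06 with the block, adjusted p 0.628). Mkl1, which encodes MRTF-A, differed by 0.13 ± 0.06 (adjusted p 0.210) and Mkl2, which encodes MRTF-B, by 0.08 ± 0.07 (adjusted p 0.558). Their protein level and location were not measured.

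Genes whose products handle actin monomers and filaments were mostly not called either. Values are from the alternative fit, with the number as a block, so the calls rest on pairing by number. The main fit, edgeR without the block, called 0 of these genes. With the block, 3.8% of all tested genes were called higher and 3.63% lower. The lists were chosen with earlier results of these data known, so these shares stand beside their counts as a description only. Of 12 monomer binders 1 fell and 11 were not called: Twf2, a twinfilin that sequesters monomers, fell by 0.34 on the log2 scale (edgeR adjusted p 0.0155). Leaving out the libraries numbered 2 brought that p to 0.0521. The profilin gene Pfn1 differed by 0.05 ± 0.07, the cofilin gene Cfl1 by 0.01 ± 0.06 and the thymosin gene Tmsb4x by 0.14 ± 0.06, none of them called. Of 10 genes of the Arp2/3 complex, which nucleates branched filaments, 1 fell, Arpc1a (-0.20 ± 0.06, adjusted p 0.0467), and without the libraries of any 1 number it was not called. Arpc2 was not called (0.08 ± 0.06).

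Of 18 formins and elongators, which build straight filaments, 3 rose and 1 fell, beside 3.8% and 3.63% of all tested genes. Enah, whose product extends filament ends, was at 259 ± 83.6 CPM in p27 OE and 181 ± 38.6 CPM in EV control (0.48 ± 0.07, adjusted p 0.00318), and it was called without the libraries of any 1 number. Diap2, a diaphanous formin, rose by 0.32 ± 0.08 (adjusted p 0.0237) and Daam2, another formin, fell by 0.30 (adjusted p 0.0207). Daam1 lies outside the naming rule and was picked once its values were known: it rose by 0.28 ± 0.07 (adjusted p 0.0280). Diap2, Daam1 and Daam2 were not called without the libraries numbered 2, nor without those numbered 3. Diap1 was not called (0.04 ± 0.07). None of the 11 tested capping and severing proteins was called, with Capzb at -0.00 ± 0.05. Of 14 genes of the chaperonin and prefoldin that fold new actin 1 fell, the prefoldin gene Pfdn5 (-0.23 ± 0.06, adjusted p 0.0397, not called without the libraries numbered 1 or 3), and Cct2 differed by -0.02 ± 0.05.

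Of 6 genes of actin-modifying enzymes 2 rose and 0 fell, beside 3.8% and 3.63% of all tested genes. Mical2, which oxidises actin and so takes filaments apart, was at 196 ± 56.3 CPM in p27 OE and 159 ± 44.9 CPM in EV control (0.30 ± 0.06, adjusted p 0.00854). Msrb1, which reverses that oxidation, was at 57.8 ± 7.67 CPM in p27 OE and 46.3 ± 1.88 CPM in EV control (0.31 ± 0.07, adjusted p 0.0166). For Msrb1 the adjusted p was 0.177 once the libraries numbered 3 were left out. None of 7 tested actin-related protein genes was called, with Actr1a, a dynactin subunit, at 0.03 ± 0.06. The median log2 difference of these lists lay between -0.06 for capping and severing proteins and 0.14 for modifying enzymes.

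The smooth muscle contractile genes, whose products work beside Acta2 and Actg2, were mostly called with the block. The main fit, edgeR without the block, called 0 of them. Of 11 tested, leaving out the actins, 8 rose and 0 fell with the block, beside 3.8% of all tested genes called higher and 3.63% lower. The list was chosen with earlier results of these data known, so setting it beside that share is no test. The median log2 difference was 0.27 against -0.00 over all tested genes. Without the libraries numbered 3 the count was 4, beside 1.58% of all genes called higher. Myh11, the smooth muscle myosin heavy chain, was at 103, 101 and 116 CPM in p27 OE 1, 2 and 3, against 44.0, 48.2 and 60.1 CPM in EV control 1, 2 and 3. It was not lowest in the libraries numbered 1 of p27 OE, unlike Acta2 and Acta1. Tagln, the actin-binding protein transgelin, rose by 0.30 ± 0.07 (adjusted p 0.0159), though not without the libraries numbered 3 (0.140). The calponin gene Cnn1 rose by 0.39 ± 0.05 (adjusted p 0.00127). Des, the muscle intermediate filament desmin, rose by 0.69 and Synpo2, an actin-bundling protein, by 0.77.

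**Figure D4:**
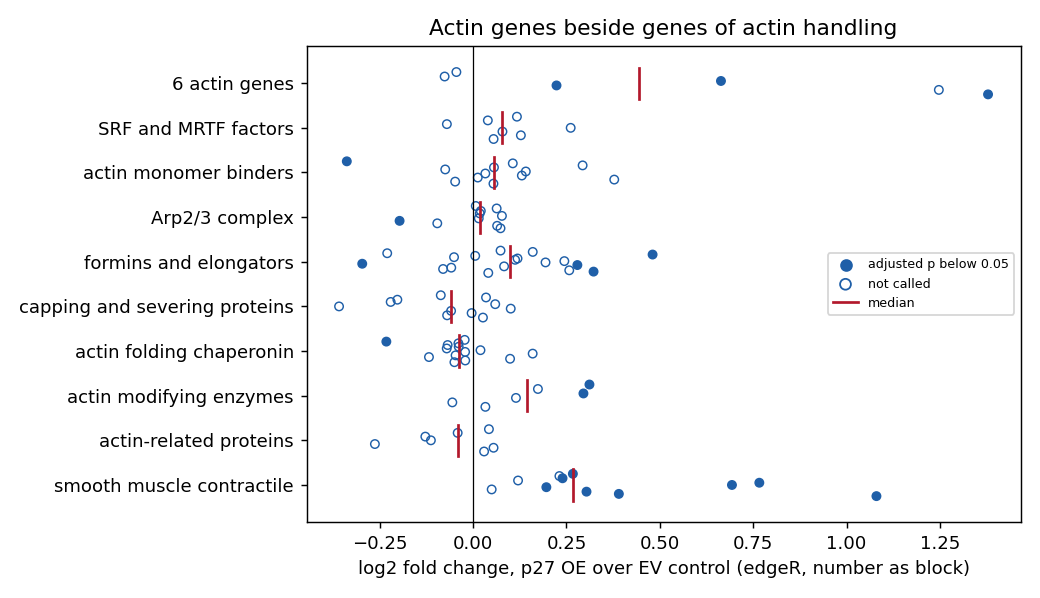
Log2 fold change of p27 OE over EV control (horizontal axis, edgeR with the number as a block) for the tested genes of each list, filled where the adjusted p is below 0.05, with a red line at the median of the list. The 6 actin genes spread from -0.08 to 1.38, while the lists of actin-handling genes have medians from -0.06 to 0.14 and the smooth muscle contractile list has a median of 0.27.

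Acta1 and Actc1 are genes of striated muscle, so markers of striated muscle are given beside them. Of 12 skeletal muscle markers 4 had enough counts to be tested and 0 were called with or without the block. The 4 tested had a median log2 difference of -0.12 with the block, against -0.00 over all tested genes. The summed level of the 12 was 5.34 to 7.46 CPM in p27 OE and 4.43 to 6.73 CPM in EV control, far below Acta1. Myf5 and Ckm were at 0 counts in all 6 libraries. The regulator genes Myf6 and Pax7 had at most 3 counts in each library. The most abundant marker, the myosin heavy chain gene Myh1, was at 0.725, 4.41 and 3.29 CPM in p27 OE 1, 2 and 3, against 0.426, 2.66 and 3.06 CPM in EV control 1, 2 and 3. Like Acta1 it was lowest in the libraries numbered 1 and higher in p27 OE in each number, but it was not called (0.48 ± 0.22 with the block, adjusted p 0.196). Myh3, an embryonic myosin gene too low to be tested, was also higher in p27 OE in each number, at up to 1.05 CPM, and the regulator gene Myog reached 0.296 CPM in EV control 1. These 3 genes were picked once their values were known. Of 10 cardiac markers 5 were tested and 1 rose, Nppb, which encodes a natriuretic peptide, at 3.79 ± 1.54 CPM in p27 OE and 1.36 ± 0.429 CPM in EV control (1.44 ± 0.20 with the block, adjusted p 0.00127). With the block 3.8% of all tested genes were called higher and 3.63% lower. Without the block 0 of the 5 cardiac markers were called. The cardiac sum was 18.9 to 21.6 CPM in p27 OE and 18.9 to 19.3 CPM in EV control, and Nkx2-5 and Myl7 had at most 3 counts in each library.

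Markers of other cells were low. Calls given here are from edgeR with the block, and without it 0 of the macrophage, endothelial and fibroblast markers were called. With the block, 3.8% of all tested genes were called higher and 3.63% lower. The sum of 9 macrophage markers was 44.7 to 82.5 CPM in p27 OE and 47.7 to 59.9 CPM in EV control, with 1 of 8 tested called, Emr1, higher. Their median log2 difference was 0.44 with the block, above that of the smooth muscle contractile genes, and 4 of the 8 had an unadjusted p under 0.05. Besides Emr1 these were Cd14 at 0.71 ± 0.20 (adjusted p 0.0509), Ptprc at 1.02 ± 0.37 (adjusted p 0.107) and Cd68 at -0.49 ± 0.17 (adjusted p 0.10), picked once their values were known. Most of the summed level was Lyz2, which differed by 0.02 ± 0.10. The sum of 8 endothelial markers was 12.6 to 21.5 CPM in p27 OE and 13.0 to 23.5 CPM in EV control, with 1 of 5 tested called, Emcn, higher. Neither Emr1 nor Emcn was called without the libraries numbered 2, nor without those numbered 3. Of the 10 fibroblast markers 2 fell, Pdgfra, a receptor for platelet-derived growth factor (-0.48 ± 0.06, adjusted p 0.000575), and Lum, lumican (-0.23 ± 0.06, adjusted p 0.0430), and the other 8 were not called. Lum was not called without the libraries numbered 1 or 3. The part of these markers in the actin results was not tested.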

How the data were processed

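RNA from 6 libraries of mouse embryonic fibroblasts was made into TruSeq version 2 libraries, per the labels' protocols. Strand is not kept by that kit, so a gene and its antisense partner share reads. The deposited values are whole read counts per gene symbol, which the authors left unnormalized. The submitters' processing notes name the mm10 build, featureCounts 1.4.6 of the Subread package, Bowtie2 2.2.6 and TopHat2 2.0.14. The sources used here give neither annotation, strand setting, read length nor the treatment of reads with several matches.

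Genes were kept with filterByExpr by group (minimum count 10, minimum total 15) and scaled by TMM. Differences were tested in edgeR 4.0.16 (R 4.3.3, quasi-likelihood F test, robust, two-sided, Benjamini-Hochberg adjustment over 14090 genes, threshold 0.05). The SE was taken from the F statistic. The main model had no block. An alternative had the library number as a block. The deviations of libraries from their group means correlated at 0.77, 0.42 and 0.54 between groups for numbers 1, 2 and 3, each over 0.1. The shared numbers in the titles were therefore taken to pair the libraries. EV control 2 with p27 OE 3 and EV control 3 with p27 OE 2 correlated at 0.39 and 0.41, also over 0.1. The check thus cannot tell the pairing of numbers 2 and 3 from a swapped one, and there the block rests on the titles. No 2 libraries of a group were duplicates, with a mean chi-square per gene of at least 9.74.

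Ratios between actins used counts per kilobase of exon (GENCODE M21) and exact permutation tests (scipy 1.17.1). Alternatives were RLE and upper-quartile scaling, other filters, DESeq2 1.42.0, limma-voom (limma 3.58.1), other gene lengths and leaving out libraries. Coding sequences were aligned with Biopython 1.88, and promoter windows are from RefSeq (GRCm38.p6). The genes named are the 6 members, Cdkn1b, fixed genes of each list, up to 3 called list members with the smallest p in the fit with the block, and the 3 nearest patterns, of which 1 is not reported here. List genes were matched by symbol or RefSeq synonym. The members and lists were chosen with earlier results of these data known.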

Additional observations from a re-analysis of the deposited data

How the results depend on the processing

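The unblocked edgeR fit called 0 genes higher and 0 lower, and with the replicate block 535 and 512, with 3 actins higher. With the block, the counts of genes higher and lower were 567 and 475 with RLE scaling, 483 and 736 with upper-quartile scaling, 689 and 727 with no filter, 543 and 475 with at least 1 CPM in at least 3 libraries, 479 and 351 with DESeq2 and 457 and 372 with limma-voom, and each of these 6 called 3 actins higher and 0 lower. Without the block, DESeq2 called 53 and 36 genes and 1 actin, and edgeR with no filter 1 gene higher. Over the fits that leave out a library, or both libraries of a number, the counts ran from 0 to 893 higher and from 0 to 848 lower (with the block, 893 and 848, 503 and 425, and 224 and 106 without numbers 1, 2 and 3), and the actins called higher from 0 to 3. The 2 actins called without the libraries numbered 3 were Acta1 and Actg2. In such fits Actb ran from -0.23 to 0.05 and Actg1 from -0.17 to 0.09 on the log2 scale, changing sign: both were positive without p27 OE 1 (0.0491 and 0.0855) and without EV control 2 (0.01 and 0.03), and Actg1 without EV control 3 (0.02). Acta1 ran from 1.04 to 1.71, Actg2 from 0.56 to 0.82, Acta2 from 0.04 to 0.44 and Actc1 from 0.29 to 2.83, the same sign throughout. The low values of Acta2 and Acta1 came without EV control 1 and the high ones without p27 OE 1. Scaling moved the median of all genes by at most 0.02. The muscle to cytoplasmic ratio differed by 0.32 to 0.34 with other lengths and by 0.27 to 0.44 without single libraries. With the replicate block, a sign-flip test of the 3 differences cannot give a p under 0.25. Actc1 could not be fitted with the 1 CPM filter, or with the block without the libraries numbered 1. DESeq2 gave it no adjusted p with or without the block. Its 2 to 44 counts per library limit what can be said of it.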

Other observations

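The ratio of p27 OE to EV control for Cdkn1b was 8.02, 19.6 and 8.99 in numbers 1, 2 and 3, beside 2.63, 2.45 and 2.73 for Acta1, 1.44, 1.61 and 1.72 for Actg2 and 1.13, 1.21 and 1.17 for Acta2. No relation between them was tested.

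Exact copies of Actg1 stretches lay mostly in annotated pseudogenes. Of its 1853 windows of 100 bases, 823 were also found in Gm12715 and 327 in Gm8399. For Actb, 20 of 1821 such windows were also found in Lrrc58 and in Gm15725.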
